A study of Mus musculus with 4 samples.

Results

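Regulatory T cells of the mouse colon were compared by whether the transcript of Il2ra, which encodes CD25, was detected in them. The cells were chosen by 2 measured values, at least 1 count of Foxp3 and then Il2ra at 1 or more counts against Il2ra at 0. Of 1050 cells kept from a table of 1985 barcodes, 332 (31.6%) carried Foxp3. Of these, 92 (27.7%, exact binomial 95% interval 23.0 to 32.9) were Il2ra-positive and 240 were Il2ra-negative. Because both genes set the groups, their own levels are no result. The split is one of transcripts, and no surface protein was used to make it.

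The mice were B6 males, 6 weeks old, and the cells were sorted from their colon lamina propria by surface protein as CD45+ TCRb+ CD4+. They were profiled by inDrops, in which single cells are captured in droplets with barcoded primers. The labels number 4 samples of 1 group, Btheta_colon, and give no treatment, genotype change or comparison group beyond that name. Their barcodes stand in 1 pooled table that ties no barcode to a sample, so it was handled as 1 sample without replicates. No test over samples was possible and no p-value is given. Every interval below is a 95% interval that covers counting error only, and spread between mice or between cells is not in it.

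CD25 is the alpha chain of the receptor for interleukin 2. Together with the beta chain (Il2rb) and the common gamma chain (Il2rg) it gives the receptor its high affinity, and signals pass through JAK1 and JAK3 to the transcription factor STAT5. Regulatory T cells, which depend on the transcription factor Foxp3, make little interleukin 2 themselves and need it for survival and for suppression, and CD25 is the surface protein by which they are most often sorted. In the gut a large share of them also carry effector products such as interleukin 10 and granzyme B and the transcription factors Gata3 and Maf. In the mm10 build with GENCODE vM21 gene models, Il2ra lies at chr2:11642807-11693193 on the plus strand and Foxp3 at chrX:7573644-7595245 on the plus strand. Both are protein-coding genes.

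Il2ra was sparse in these cells. It had 0 counts in 240 cells, 1 count in 54, 2 counts in 26 and 3 to 7 counts in the other 12, so 54 of the 92 positive cells sat just inside the gate. Among the kept cells with Foxp3, 6 held 500 to 549 counts, just above the depth minimum, and none of the 6 carried Il2ra. A further 2 barcodes with Foxp3 held 450 to 499 counts, just below it, and neither carried Il2ra. In 67 Foxp3-negative cells with at least 2 of 7 naive T cell genes, which served as a reference that should lack most regulatory products, 7.46% carried Il2ra (2.47 to 16.6), with a median depth of 1422 counts.

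Depth moved with the gate. The Il2ra-positive cells held 557 to 3755 counts with a median of 1417.5, and the Il2ra-negative cells held 507 to 7500 with a median of 1254.5. The 2 ranges overlapped almost completely. The share of cells with Il2ra was 21.4% of the 84 cells with 500 to 1000 counts, 29.1% of the 117 with 1000 to 1500, 27.9% of the 86 with 1500 to 2500 and 35.6% of the 45 deeper ones. Cells at 0 Il2ra counts are therefore not shown to lack the transcript or CD25. After each cell was thinned at random to 500 counts, 42 of the 92 positive cells (45.7%) still carried Il2ra. For this reason the main shares of cells are given both as measured and after thinning, and key ratios are given again within the 52 positive and 122 negative cells that held 1000 to 2000 counts.

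**Figure D1:**
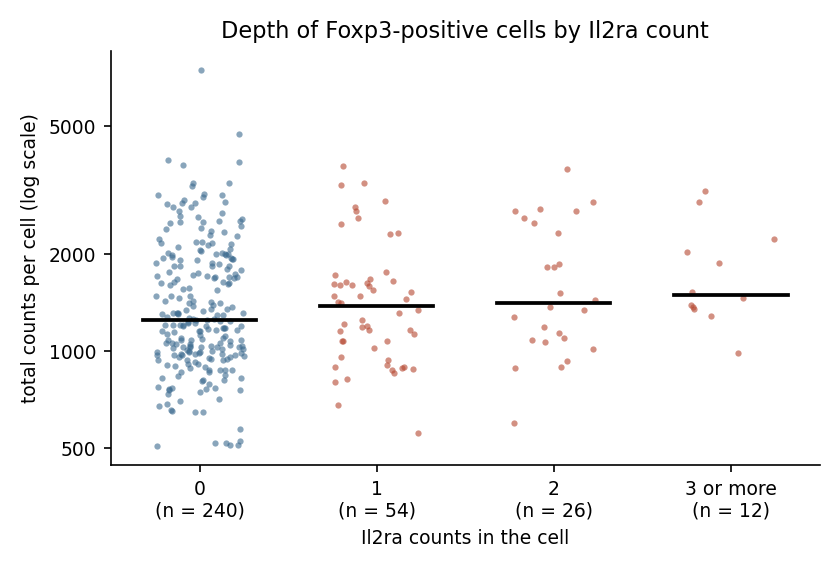
Total counts per cell (log scale) for the 332 Foxp3-positive cells, grouped by the number of Il2ra counts. Each point is a cell and each black line is a group median, which is 1254.5 counts at 0 Il2ra counts and 1380.5 at 1.

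Other measures of the 2 groups were close. The median number of detected genes was 710 in the positive and 625.5 in the negative cells, and the median mitochondrial share was 4.16% and 4.13%. Mean Foxp3, part of the gate, was 2.14 and 2.06 counts per cell. Of the 12 T cell marker genes all were detected on both sides, with a summed level of 7705 CPM (counts per 1e6 counts) in the positive and 8633 CPM in the negative cells. Most markers of other lineages were at or near 0, with the exceptions named here. The erythroid list had 0 counts on both sides, the B or plasma cell list 1 and 10 counts, the mast cell or granulocyte list 0 and 10, the epithelial list 1 and 46 (125.8 CPM in the negative cells), and the stromal or endothelial list 9 and 25. The myeloid or dendritic list reached 422.5 and 361.1 CPM, and at least 1 of its 16 genes was found in 35.9% of the positive and 31.7% of the negative cells. Most of it was Cst3, which encodes the widely made protease inhibitor cystatin C, at 335 and 326 CPM. C1qb had 5 and 2 counts, and Cd68 and Itgax were at 0 on both sides. The list for CD8, gamma delta, innate lymphoid or natural killer cells was at 114 and 164 CPM, with 4 and 12 counts of Cd8b1 and with Klrb1c, Ncr1 and Tcrg-C1 at 0 on both sides. Scrublet called 3 of the positive and 2 of the negative cells doublets. Ratios with the called doublets left out, and with the cells of another lineage left out, are among the alternatives in the closing section.

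Levels are given as CPM from the summed counts of each group, and ratios as the log2 of the positive over the negative level. Over the 1790 genes with at least 50 counts in the 332 cells, the median ratio was 0.00. Of these genes 151 (8.44%) were at least 1.5-fold higher in the Il2ra-positive cells and 190 (10.6%) at least 1.5-fold lower. Among the 6311 genes with at least 10 counts, which is the minimum used for gene lists, the shares were 19.4% higher and 23.4% lower, and the median was -0.03. These shares are the background against which the counts for each gene list are read. The floor used for a group at 0, 3 counts, corresponds to 20.1 CPM in the positive and 8.21 CPM in the negative cells.

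**Figure D2:**
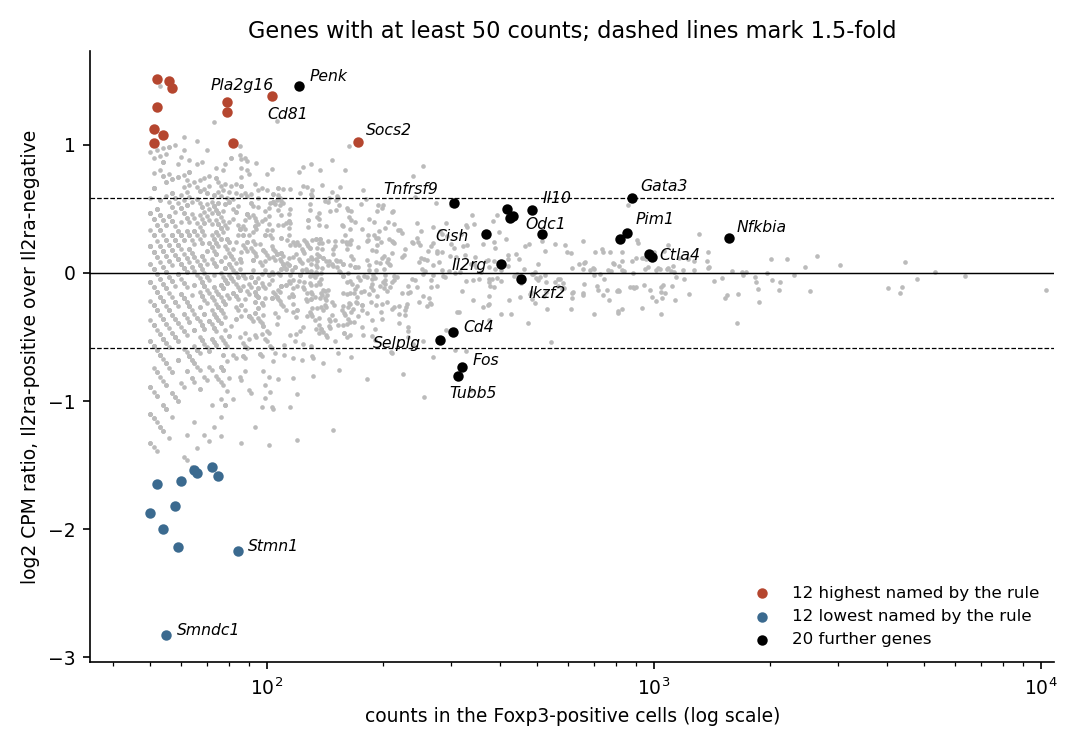
Log2 ratio of CPM between Il2ra-positive and Il2ra-negative cells for 1790 genes (grey points), against the counts of each gene in the 332 cells (log scale). The 12 highest and 12 lowest genes of the naming rule and 20 further genes chosen for display are coloured, and of the labelled genes Gata3, Il10 and Odc1 lie above 0 while Cd4, Selplg and Fos lie below 0.

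The partners of CD25 in its receptor were at near-equal levels on both sides. Il2rg, the shared gamma chain, had 0 counts in 45 of the 92 positive cells and in 120 of the 240 negative cells. Its level was 811 against 774 CPM, a log2 ratio of 0.07 (-0.25 to 0.38). Il2rb, the beta chain, was detected in 19 positive and 53 negative cells. Its level was 221 against 208 CPM, a log2 ratio of 0.09 (-0.55 to 0.70). Neither chain of the receptor therefore stood apart from 0 at this depth, and the intervals still allow a difference of 1.5-fold for Il2rb but not for Il2rg. Jak1, the kinase bound by the beta chain, was at 1274 against 1097 CPM (log2 0.22, -0.04 to 0.47). Jak3, the kinase bound by the gamma chain, was at 80.5 against 68.4 CPM (log2 0.23, -0.89 to 1.28). Stat5b was at 121 against 112 CPM (log2 0.11, -0.78 to 0.94), and Stat5a had 5 counts over both groups, for which no ratio is given. The signalling genes were thus measured with wide errors, and Il2 itself, the ligand, had 17 counts in all.

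Il7r, the receptor chain for interleukin 7 that is usually low on regulatory T cells, was at 208 against 183 CPM (log2 0.18, -0.48 to 0.82). Of the 12 measured genes in the list of receptor partners and JAK-STAT genes, 8 had a ratio above 0 and 4 below it, with a median of 0.10. Il9r, a further receptor that uses the gamma chain, was the 1 member at least 1.5-fold higher, on 14 counts in all, and none was at least 1.5-fold lower. The shares for all genes with at least 10 counts were 19.4% and 23.4%. The list median was -0.13 after thinning, so its sign was not kept.

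Among genes that interleukin 2 and STAT5 are known to induce, Cd81, Socs2, Odc1, Gadd45b and Pim1 had ratios whose interval lay above 0. Of the 37 measured members of 44, 24 had a ratio above 0 and 13 below, with a median of 0.11, beside -0.03 for all genes. The median stayed above 0 in all 14 alternatives, from 0.04 to 0.19. Counts past 1.5-fold were no more frequent than in the background: 4 members were higher and 6 lower. No member had an interval below 0. Among all 6311 genes it lay above 0 for 366 and below 0 for 326. Of the 1790 genes with at least 50 counts, the interval left out 0, in either direction, for 261 (14.6%).

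Cd81, a tetraspanin that organises receptors at the cell surface (chr7:143052739-143067934, plus strand), had 0 counts in 65 of the 92 positive cells and in 208 of the 240 negative cells. It had 1 count in 12 and in 22 cells, and 2 or more in 15 and in 10 cells. It was thus found in 29.3% of the positive cells (20.3 to 39.8) and 13.3% of the negative cells (9.30 to 18.3), and in 1.49% of the naive reference. Its level was 355 against 137 CPM, a log2 ratio of 1.38 (0.79 to 1.96). The largest share held by 1 cell was 9.43% of the positive counts. In the single thinned draw the shares were 10.9% and 6.67%, with overlapping intervals, while the mean over all possible draws was 14.1% and 5.47%. Within 1000 to 2000 counts the log2 ratio was 1.29.

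Socs2, a suppressor of cytokine signalling induced by STAT5 (chr10:95385362-95417180, minus strand), differed in the number of counts per cell more than in the share of cells. It was detected in 29.3% of the positive and 24.6% of the negative cells, in 14.1% and 9.58% after thinning, and in 1.49% of the naive reference. Where detected it averaged 2.89 counts in the positive cells and 1.59 in the negative cells, and 12 of the 92 positive cells but 6 of the 240 negative cells held 3 or more. Its level was 523 against 257 CPM, a log2 ratio of 1.02 (0.57 to 1.47). With each cell's count capped at 1 the ratio was 0.16 (-0.56 to 0.84), so the difference lay in the few cells with several counts.

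Pim1 and Odc1 differed in the other way, by the share of cells. Pim1, a survival kinase (chr17:29490753-29496112, plus strand), had no count in 13 of the 92 positive and 76 of the 240 negative cells. It was found in 85.9% (77.1 to 92.3) and 68.3% (62.0 to 74.2) of cells, in 58.7% and 43.3% after thinning, and in 31.3% of the naive reference (17.9% thinned). Its level was 1925 against 1548 CPM, a log2 ratio of 0.31 (0.10 to 0.52), and it stayed between 0.23 and 0.36 in 12 alternatives. Odc1, ornithine decarboxylase, the enzyme that starts polyamine synthesis (chr12:17544794-17551505, plus strand), was found in 55.4% (44.7 to 65.8) and 38.3% (32.2 to 44.8) of cells. After thinning the shares were 38.0% and 21.7% in the single draw and 31.3% and 22% as the mean over all draws, against 2.99% in the thinned naive reference. Its level was 1033 against 760.5 CPM, a log2 ratio of 0.44 (0.15 to 0.73).

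The negative regulators of the pathway had ratios of both signs. Cish, a close relative of Socs2, was at 825 against 670 CPM (log2 0.30, -0.03 to 0.62). Socs1, which blocks JAK kinases, was at 101 against 153 CPM (log2 -0.61, -1.54 to 0.24), and Socs3 had 14 counts in all (log2 1.29, -0.45 to 3.03). Gadd45b, a stress-induced gene, was at 677 against 517 CPM (log2 0.39, 0.03 to 0.75), but its thinned ratio was -0.01. The cyclin gene Ccnd2 (log2 0.17, -0.06 to 0.39) and the adhesion receptor gene Cd44 (log2 0.16, -0.09 to 0.42) had intervals that include 0. The 6 members at least 1.5-fold lower were Myc, Cst7, Slc1a5, Xbp1, Irf8 and Socs1, each with an interval that includes 0. The other members at least 1.5-fold higher, beside Cd81 and Socs2, were Socs3 and Il10ra, also with intervals that include 0.

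**Figure D3:**
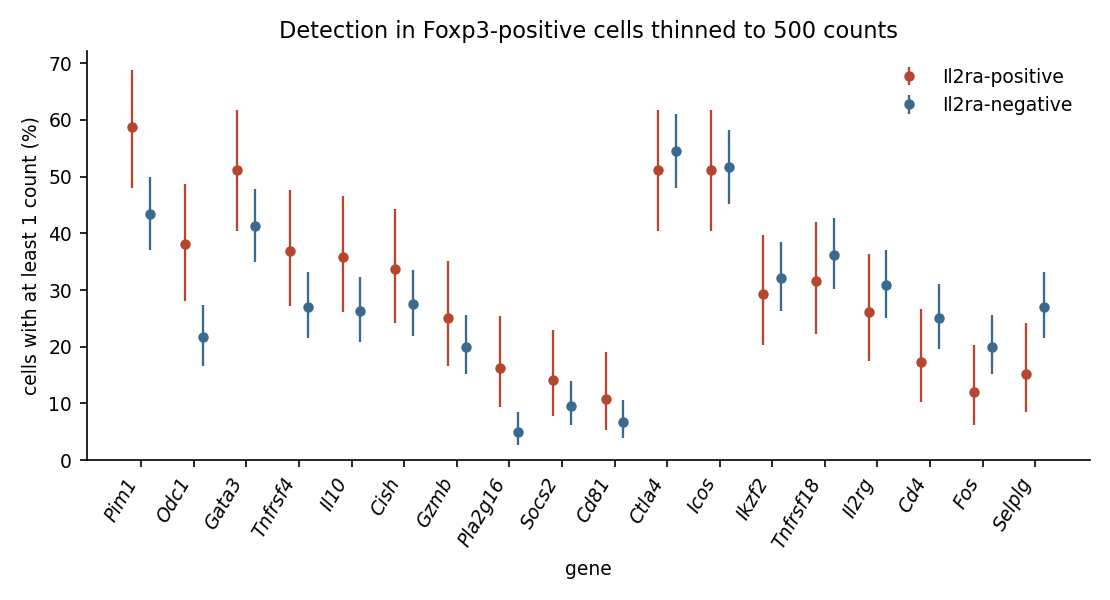
Share of Il2ra-positive and Il2ra-negative cells (percent) with at least 1 count of each of 18 genes after every cell was thinned to 500 counts, with exact binomial 95% intervals. Pim1 (58.7% against 43.3%) and Odc1 (38.0% against 21.7%) stand apart most among the STAT5 response genes, while Ctla4 (51.1% against 54.6%) and Icos (51.1% against 51.7%) nearly coincide.

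Among the core regulatory T cell genes, the abundant Ctla4, Icos and Ikzf2 were at near-equal levels on both sides. Ctla4, an inhibitory receptor that strips CD80 and CD86 from antigen-presenting cells, had a median of 2 counts per cell on both sides. Its level was 2032 against 1836 CPM, a log2 ratio of 0.15 (-0.05 to 0.34). Icos, a costimulatory receptor, was at 2045 against 1874 CPM (log2 0.13, -0.07 to 0.32). Ikzf2, which encodes Helios, was at 858 against 889 CPM (log2 -0.05, -0.36 to 0.25). These 3 abundant genes thus differed by less than 1.5-fold, and each interval includes 0 and leaves out 1.5-fold. Of the 29 measured members of the list, 21 had a ratio above 0 and 8 below, with a median of 0.24. At least 1.5-fold higher were 3 members (Penk, Socs2 and Il10ra) and at least 1.5-fold lower 4 (Nrp1, Entpd1, Ikzf4 and Gpr83), both shares below the background of 19.4% and 23.4%.

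Tnfrsf4, which encodes OX40 (chr4:156013843-156016612, plus strand), was detected in 65.2% of the positive and 50.8% of the negative cells, and in 37.0% and 27.1% after thinning. The naive reference had it in 2.99% of cells. Its level was 1026 against 725 CPM, a log2 ratio of 0.50 (0.20 to 0.79). Tnfrsf9, which encodes 4-1BB, was at 764.5 against 522.5 CPM (log2 0.55, 0.20 to 0.89), and Tnfrsf18, which encodes GITR, at 1153 against 936 CPM (log2 0.30, 0.03 to 0.57). These 3 ratios were not kept within 1000 to 2000 counts (52 positive and 122 negative cells), where they were 0.00, -0.29 and -0.15. In the single thinned draw they were 0.43, 0.19 and -0.25, and in the mean of per-cell CPM 0.37, 0.33 and 0.195. The same 3 ratios were 0.43, 0.54 and 0.33 among all cells with at least 1000 counts.

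Cd83, an activation marker, was at 369 against 246 CPM (log2 0.58, 0.07 to 1.08), and at a ratio of 0.11 with counts capped at 1 per cell. Penk, the precursor of enkephalin peptides, was at 429 against 156 CPM (log2 1.46, 0.92 to 2.0). It was detected in 11 positive and 19 negative cells, and 1 positive cell held 45.3% of the positive counts. With counts capped at 1 per cell the ratio was 0.50. Ikzf4, which encodes Eos, was at 53.7 against 120 CPM (log2 -1.17, -2.46 to -0.06), on 52 counts in all, and its ratio was 0.60 among cells with at least 2 Foxp3 counts. Klrg1, an inhibitory receptor of terminally differentiated cells, was at 785 against 736 CPM (log2 0.09, -0.23 to 0.41).

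Among effector and tissue genes, Gata3 and Il10 were higher in the Il2ra-positive cells, as were Gzmb and Maf. Each of these genes kept the sign of its ratio in all 12 alternatives that apply to single genes. Gata3, a transcription factor of type 2 and tissue-repair programs (chr2:9857078-9890034, minus strand), had 0 counts in 26 of the 92 positive cells and 3 or more in 40. In the negative cells it had 0 counts in 105 of 240 and 3 or more in 74. It was found in 71.7% (61.4 to 80.6) and 56.3% (49.7 to 62.6) of cells, in 51.1% and 41.3% after thinning, and in 23.9% of the naive reference (14.9% thinned). Its level was 2240 against 1491 CPM, 1.5-fold and a log2 ratio of 0.59 (0.39 to 0.79). The log2 ratio was 0.83 within 1000 to 2000 counts and 0.25 (-0.20 to 0.69) with counts capped at 1, the highest and lowest of its alternatives.

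Il10, the suppressive cytokine (chr1:131019845-131024974, plus strand), had 0 counts in 42 of the 92 positive and 144 of the 240 negative cells. It was found in 54.3% (43.6 to 64.8) and 40.0% (33.8 to 46.5) of cells, and in 1.49% of the naive reference. After thinning it was found in 35.9% (26.1 to 46.5) and 26.3% (20.8 to 32.3), with overlapping intervals. Its level was 1187 against 842.5 CPM, a log2 ratio of 0.49 (0.22 to 0.77). Where detected it averaged 3.54 and 3.21 counts, so the groups differed mainly in how many cells carried it. Its log2 ratio ranged from 0.32 to 0.67 over the alternatives and was 0.60 within 1000 to 2000 counts. The ratio after thinning (0.32, -0.155 to 0.79) and that with capped counts (0.34, -0.18 to 0.85) had intervals that include 0.

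Gzmb, granzyme B, was at 1013 against 752 CPM (log2 0.43, 0.13 to 0.72) but was found in 35.9% and 30.4% of cells, and in 25% and 20% after thinning, with overlapping intervals. Maf, a transcription factor that promotes Il10, was at 1804 against 1505 CPM (log2 0.26, 0.05 to 0.47). After thinning Maf was found in 47.8% and 46.7% of cells, with a ratio of 0.21 (-0.17 to 0.58). With counts capped at 1 per cell its ratio was 0.05 (-0.37 to 0.45). The other tissue genes past 1.5-fold were Tgfb1 at 282 against 178 CPM (log2 0.66, 0.07 to 1.25), Bhlhe40 at 268 against 175 CPM (log2 0.62, 0.01 to 1.21) and Itgb8 on 15 counts in all (log2 1.49, -0.17 to 3.18). Bhlhe40, a transcription factor, was detected in 17.4% and 17.5% of cells, and its ratio was -0.11 with counts capped at 1 and 0.14 after thinning. Tgfb1 encodes the latent cytokine that an integrin containing the Itgb8 product activates. Cxcr3, a chemokine receptor of type 1 cells, was the 1 member at least 1.5-fold lower, at 13.4 against 60.2 CPM (log2 -2.17, -5.30 to -0.14), on 24 counts in all.

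The tissue-repair genes often seen beside Gata3 showed no difference that the counts could resolve. Areg, the growth factor amphiregulin, was at 181 against 161 CPM (log2 0.17, -0.55 to 0.85). Il1rl1, the receptor for interleukin 33, was at 87.2 against 95.7 CPM (log2 -0.14, -1.18 to 0.82). Of 29 measured members of the effector and tissue list, 20 had a ratio above 0 and 9 below, with a median of 0.16. At least 1.5-fold higher were 4 members and lower 1. The list median stayed above 0 in all 14 alternatives, from 0.02 to 0.20. The list of suppressor surface and secreted genes, which shares Il10, Gzmb, Tgfb1 and Penk with the lists above, had a median of 0.23 over 21 measured members, with 4 at least 1.5-fold higher and 2 lower, and stayed above 0 in all 14 alternatives, from 0.04 to 0.46.

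**Figure D4:**
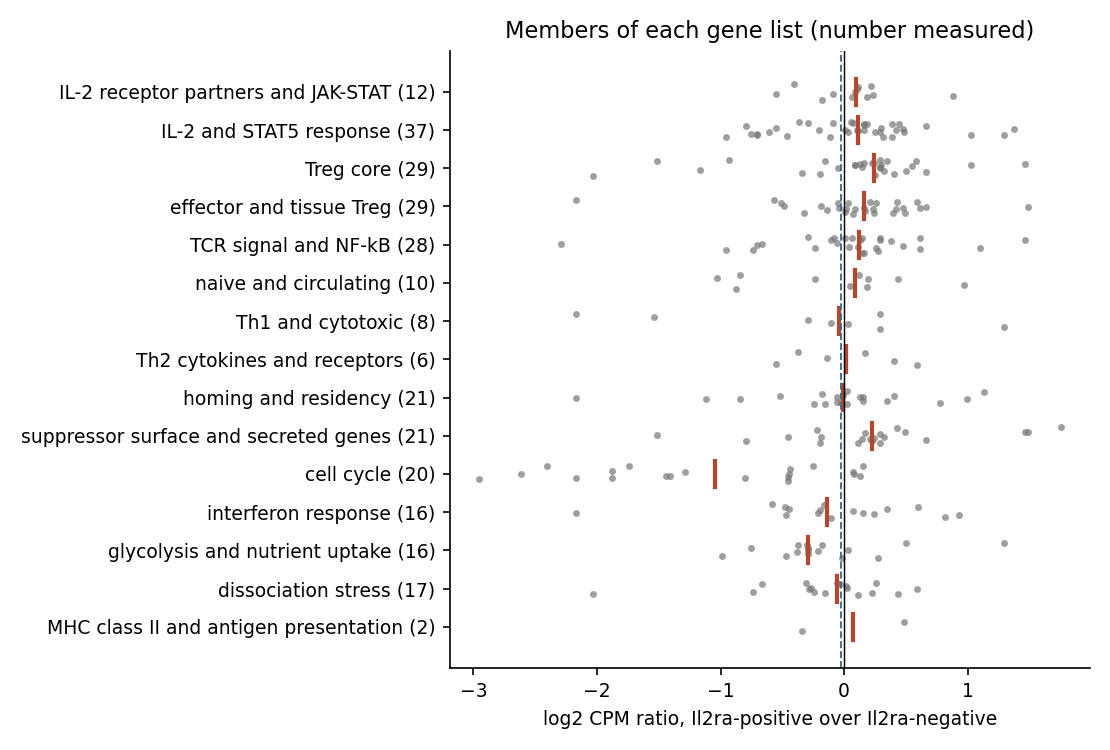
Log2 CPM ratio of every measured member (at least 10 counts, grey points) in each of 15 gene lists, with their number. Red bars are the medians over the measured members and the dashed line is the median of all genes (-0.03); the cell cycle median (-1.05) lies farthest from 0.

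Genes of T cell receptor signalling had ratios of both signs. Nr4a1, an orphan nuclear receptor induced by antigen, was at 798 against 613 CPM (log2 0.38, 0.05 to 0.71), and Nfkbia, the inhibitor of NF-kB, at 3454 against 2859 CPM (log2 0.27, 0.12 to 0.43). The AP-1 genes Fos and Jun were lower, Fos at 422.5 against 703 CPM (log2 -0.73, -1.16 to -0.33) and Jun at 181 against 287 CPM (log2 -0.67, -1.33 to -0.04). Fos was detected in 31.5% and 34.2% of cells as measured and in 12% and 20% after thinning, or 14.9% and 20.7% as the mean over all draws. Cells with 3 or more counts of Fos were 7 of the 92 positive and 34 of the 240 negative cells. The ratio of Fos was -0.09 and that of Jun -0.08 among cells with at least 2 Foxp3 counts. Fos and Jun are also genes that tissue digestion induces, and that list of 17 measured stress genes had a median of -0.06, with 1 at least 1.5-fold higher and 3 lower. Of 28 measured receptor and NF-kB genes, 18 had a ratio above 0 and 10 below, with a median of 0.12 and with 4 at least 1.5-fold higher and 5 lower.

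Genes of other T cell programs gave no list that stood apart from the background. The naive and circulating list had a median of 0.09 over 10 measured members of 18, with 1 at least 1.5-fold higher and 3 lower. Tcf7, a transcription factor of naive cells, was found in 2.17% of the positive and 2.50% of the negative cells, beside 59.7% of the naive reference, which its counts helped to choose. The type 1 and cytotoxic list had a median of -0.04 over 8 members, 4 with a ratio above 0 and 4 below. By 1.5-fold, 1 was higher (Ccl5, log2 1.29, -0.21 to 2.80, on 18 counts in all) and 2 lower (Cxcr3 and Nkg7). The type 2 list had a median of 0.02 over 6 members (1 higher and none lower), of which Gata3 was the higher one. The homing and residency list had a median of -0.01 over 21 members, with 3 at least 1.5-fold higher (Ccr9, Itgb1 and Ccr1) and 3 lower (Cxcr3, Cxcr4 and S1pr1). Selplg, the selectin ligand, was at 416 against 596 CPM (log2 -0.52, -0.95 to -0.11). The interferon list had a median of -0.13 over 16 members, with 3 at least 1.5-fold higher (Igtp, Irgm1 and Gbp7) and 1 lower. Of these, 1 cell held 39.5% of the positive counts of Igtp. The ratio of Gbp7 was -0.79 in the single thinned draw and -0.08 within 1000 to 2000 counts. As the mean over all draws, Gbp7 was found in 7.90% of the positive and 6.16% of the negative cells.

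Cd4 itself, which every sorted cell should carry as protein, was at 463 against 637 CPM (log2 -0.46, -0.87 to -0.07). It was detected in 35.9% (26.1 to 46.5) of the positive and 43.3% (37.0 to 49.9) of the negative cells, and in 17.4% and 25% after thinning. Of the 12 T cell markers, 10 had a ratio below 0 and 2 above, with a median of -0.15, and none passed 1.5-fold in either direction. After thinning the median of this list was 0.08.

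The cell cycle list had the median farthest from 0 of the 15 lists, and its counts stood in few cells. Of 20 measured members 16 had a ratio below 0 and 11 were at least 1.5-fold lower, beside 23.4% of all genes, with a median of -1.05. None was at least 1.5-fold higher. Stmn1, a microtubule regulator of dividing cells, was detected in 3 of the 92 positive and 11 of the 240 negative cells, at 46.9 against 211 CPM (log2 -2.17, -3.53 to -1.05). Tubb5, a tubulin, was at 396 against 689 CPM (log2 -0.80, -1.24 to -0.39). Top2a, a topoisomerase of dividing cells, was at 33.5 against 112 CPM (log2 -1.74, -3.44 to -0.40). Top2a was found in 2.17% and 4.58% of cells. At least 5 of the list's genes, some of which are also expressed outside division, were found in 7 positive cells (7.61%, 3.11 to 15.0) and 20 negative cells (8.33%, 5.16 to 12.6). These were deep cells, with medians of 2803 and 2893 counts.

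Those 20 negative cells held 58.7% of the list's counts in their group, and the 7 positive cells held 26.9% in theirs. Without these cells the list's summed level was 2328 against 1945 CPM, in the other direction from 2796 against 3890 CPM with them, and the median was 0.21 over the 10 members still measured. The cells left out were chosen by the list's own genes, so this says where the counts stood and is no test of the difference. Within 1000 to 2000 counts the median was 0.21 over 10 measured members. The ratios of Gata3 (0.68), Il10 (0.44), Odc1 (0.49) and Cd81 (1.37) without these cells kept their direction.

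The glycolysis and nutrient uptake list held more ratios below 0 than above it, and few that the counts could resolve. Of 16 measured members 12 had a ratio below 0, with a median of -0.29, and the median lay below 0 in all 14 alternatives, from -0.55 to -0.11. At least 1.5-fold lower were 2 members, Mif and Slc1a5, and at least 1.5-fold higher 1, Slc2a1, shares below the background. Ldha, lactate dehydrogenase, was at 603.5 against 780 CPM (log2 -0.37, -0.73 to -0.02), and Mif, a cytokine, at 93.9 against 186 CPM (log2 -0.99, -1.93 to -0.14). These 2 were the members whose interval lay below 0. After thinning 7 members had a ratio above 0 and 8 below. The 82 ribosomal protein genes measured had a median of 0.01.

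Apart from the lists, the 12 genes of highest ratio under the naming rule included Cd81 and Socs2, described above, and 10 others of low abundance. They were Ppfia1 (log2 1.52), Ankrd11 (1.5), Arhgap4 (1.45), Pla2g16 (1.33), Mrpl20 (1.29), Kat6a (1.26), Lgmn (1.12), Map2k1 (1.08), Mapre2 (1.01) and Vps72 (1.01). Pla2g16, a phospholipase (chr19:7557459-7588545, plus strand), was the gene among them with the widest gap in detection. It had 0 counts in 62 of the 92 positive and 210 of the 240 negative cells, so it was found in 32.6% (23.2 to 43.2) and 12.5% (8.60 to 17.4). After thinning the shares were 16.3% (9.42 to 25.5) and 5.0% (2.61 to 8.57), beside 1.49% in the thinned naive reference and 5.97% in the unthinned one. Its level was 268 against 107 CPM, and its log2 ratio stayed between 1.08 and 1.77 in the alternatives.

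Arhgap4 was found in 21.7% (13.8 to 31.6) and 8.33% (5.16 to 12.6) of cells and in 10.9% and 2.08% after thinning. The naive reference had it in 13.4% of cells, above the negative group. Ppfia1 was detected in 6 positive and 9 negative cells, and 1 cell held 25% of its positive counts. With counts capped at 1 its ratio was 0.70 (-1.07 to 2.35). Kat6a, a histone acetyltransferase, was at 262 against 109 CPM (log2 1.26, 0.58 to 1.93), but its ratio was 0.31 (-1.02 to 1.52) after thinning and 0.56 (-0.40 to 1.48) with capped counts. Lgmn, the lysosomal protease legumain, was at 161 against 73.9 CPM (log2 1.12, 0.27 to 1.97). Of these 12 genes, 10 kept the sign of their ratio in every alternative. The exceptions were Map2k1, which encodes the kinase MEK1, and Vps72, which turned when Il2ra of at least 2 counts was required. The rule took the extremes of 1790 genes, so the size of these ratios is partly fixed by the choice. It also required the sign to hold in the mean of per-cell CPM, which is itself an alternative. Most alternatives reuse largely the same cells, so keeping the sign is partly fixed as well.

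The 12 genes of lowest ratio were Smndc1 (log2 -2.82), Stmn1 (-2.17), Mia3 (-2.14), Asxl2 (-2.0), Cuta (-1.88), Rala (-1.82), Rsrp1 (-1.65), Ndufa10 (-1.63), Rnps1 (-1.58), Tshz1 (-1.56), Nkg7 (-1.54) and Atf7ip (-1.51). All were near the floor in the positive cells. There Smndc1 had 3 counts, the floor itself, Mia3, Asxl2 and Cuta had 5 each, and Rala and Rsrp1 had 6 each. After thinning, only the intervals of Nkg7 and Tshz1 left out 0. Nkg7, a granule membrane protein of cytotoxic cells, was found in 5 of the 92 positive and 30 of the 240 negative cells, 5.43% and 12.5%, and in 1.09% and 5.83% after thinning. Its level was 53.7 against 156 CPM (log2 -1.54, -2.82 to -0.46). Of the measured type 1 and cytotoxic genes, to which Nkg7 belongs, 4 had a ratio above 0 and 4 below. Smndc1 and Rnps1 encode splicing factors, and Asxl2 and Atf7ip encode chromatin regulators. All 12 kept the sign of their ratio in every alternative that gave one, which the same rule partly fixed.

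Levels were also set out by the number of Il2ra counts, for genes chosen after their ratios were known. Gata3 was at 1491 CPM (1368 to 1621) in the cells with 0 Il2ra counts, 2089 CPM (1789 to 2424) in the 54 cells with 1 and 2428 CPM (2068 to 2834) in the 38 cells with 2 or more. Il10 was at 842.5, 1135 and 1252 CPM in the same order, and Cd81 at 137, 314 and 407 CPM. In these 3 genes the cells with 1 Il2ra count lay between the others, although the intervals at 1 and at 2 or more overlapped. Socs2 (257, 616 and 407 CPM), Odc1 (760.5, 1123 and 920 CPM) and Pla2g16 (107, 302 and 226 CPM) were highest at 1 count. Ctla4 was at 1836, 1763 and 2368 CPM and Gzmb at 752, 821 and 1252 CPM, so for both the higher level was in the cells with 2 or more.

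**Figure D5:**
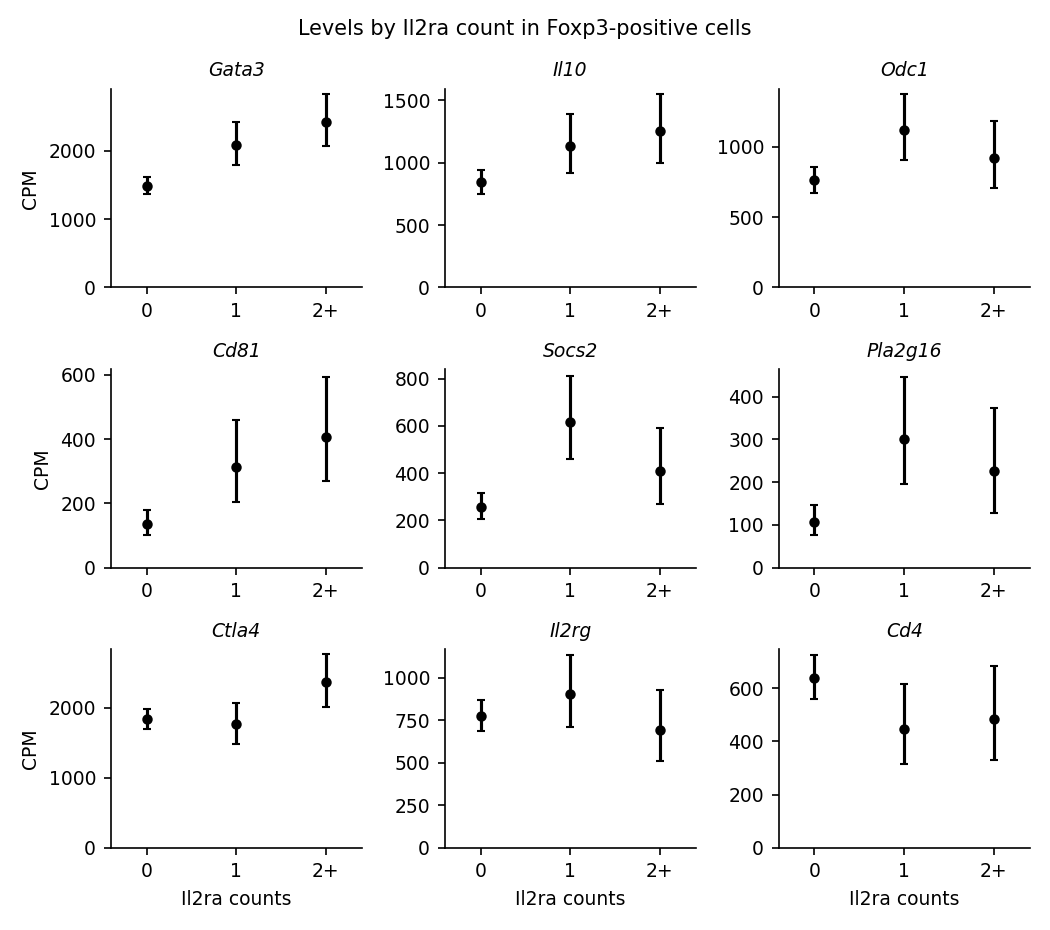
Level (CPM, axes from 0) of 9 genes in Foxp3-positive cells with 0, 1 or 2 or more Il2ra counts, with exact 95% counting intervals. Gata3, Il10 and Cd81 are lowest at 0 and highest at 2 or more, while Il2rg and Cd4 show no such order.

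The same split was made in the 718 cells without Foxp3 counts, of which 92 carried Il2ra and 626 did not. There the medians of the regulatory gene lists were farther from 0, but not the ratio of every member. Socs2 (0.43 beside 1.02) and Penk (0.50 beside 1.46) were nearer to 0 in the Foxp3-negative cells. The Treg core median was 0.74 in the Foxp3-negative cells beside 0.24 in the Foxp3-positive cells, and the naive and circulating median was -1.04 beside 0.09. Il10 had a log2 ratio of 1.38 (1.05 to 1.70) beside 0.49, Tnfrsf4 1.43 (1.1 to 1.75) beside 0.50, and Ikzf2 1.06 (0.71 to 1.40) beside -0.05. Cells without a Foxp3 count can still express Foxp3 at this depth: after thinning, 56.9% of the 332 Foxp3-positive cells kept a Foxp3 count. Gata3 had a log2 ratio of 0.24 (0.03 to 0.44) in the Foxp3-negative cells beside 0.59, Pla2g16 -0.08 (-0.86 to 0.63) beside 1.33, and Stmn1 0.92 (0.41 to 1.40) beside -2.17. With 1 pooled sample the differences between the 2 splits were not tested.

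Of the products that mark effector states, granzyme B transcript was found in 33 of the 92 Il2ra-positive and 73 of the 240 Il2ra-negative cells, Il10 in 50 and 96, Klrg1 in 47 and 97, and Nr4a1 in 37 and 86. After thinning the shares were 25% and 20% for Gzmb, 35.9% and 26.3% for Il10, and 22.8% and 20.8% for Nr4a1. The share with Klrg1 was 51.1% (40.4 to 61.7) and 40.4% (34.1 to 46.9) as measured but 26.1% and 24.6% after thinning.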

How the data were processed

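CD4 T cells of the mouse colon were profiled by inDrops, and the labels number 4 samples of a single group. The authors deposited raw counts, 1690867 in all, as 1 table of 1985 barcodes by 25724 gene symbols. TopHat2, SAMtools and the mm10 build are named in the submitters' processing notes, with neither version nor role. How reads were counted, whether molecular identifiers were collapsed, which annotation was used and how barcodes were filtered is not given in the sources used here. If identifiers were not collapsed, counts are not independent molecules.

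A minimum of 500 counts left 1071 barcodes, one of 200 genes left 1058, and a limit of 20% on mitochondrial counts left 1050. The 332 cells with Foxp3 were split by Il2ra, and their counts were summed by group (149124 and 365559 counts) and scaled to CPM. Log2 ratios have exact conditional intervals from the split of the counts, and shares have exact Clopper-Pearson binomial intervals, all at 95%. A group at 0 was set to a floor of 3 counts. Cells were thinned to 500 counts after gating in 1 draw with a fixed seed, and shares were also computed as the mean over all draws. Doublets were called with Scrublet (scanpy 1.11.5), which marked 9 of 1050 cells (0.857%). They were kept, and were left out as an alternative. Other tools were Python 3.11.15, numpy 2.4.6, scipy 1.17.1, pandas 2.3.3 and matplotlib 3.10.9. The scripts were tested on simulated data.

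By the naming rule, 12 genes of highest and 12 of lowest ratio were taken from those that had 50 counts or more. Their interval had to leave out 0, the sign had to hold in the mean of per-cell CPM, and no cell could hold over 25% of the higher group's counts. Ribosomal, mitochondrial, immunoglobulin, receptor and predicted genes were left out. Up to 4 members of each list, by ratio over interval width, were added, as was a fixed list of genes, some of them already taken. Other list members are named after their values were seen, as those past 1.5-fold or with an interval that leaves out 0. The cells and lists were chosen with earlier results of these data known. Of the alternatives, 12 were planned and 2 added after seeing the data: without the deepest Il2ra-positive cell, and without cells with at least 5 cell cycle genes. Genes for the figures and for levels by Il2ra count were also chosen then. Lrrc32, Mki67 and Epcam are not analysed here.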

Additional observations from a re-analysis of the deposited data

Results flagged for a closer look

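Foxp3 counts were also found in data that the comparison does not use. Of the 935 barcodes left out by the cell filters, 17 carried Foxp3, and all 17 held under 500 counts, with a median of 367. The level of Foxp3 over the 935 barcodes was 183 CPM, above the 21.1 CPM that 3 counts of their total would give. Il2ra was found in 1 of the 17, a share of 5.88% (exact 95% interval 0.149 to 28.7), beside 27.7% of the 332 deeper cells.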

How the results depend on the processing

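The counts of genes at least 1.5-fold higher and lower, 151 and 190 of 1790, moved by over 1.5 times in 6 alternatives. They were 31 and 40 of 491 after thinning to 500 counts per cell, 99 and 116 with counts capped at 1 per cell and gene, 70 and 73 of 748 within 1000 to 2000 counts, and 78 and 89 of 905 with at least 2 Foxp3 counts. With a minimum of 20 counts per gene they were 622 and 797 of 4148, and with 100 counts 37 and 35 of 795. With Il2ra of at least 2 counts they were 175 and 213 of 1457, and with the mean of per-cell CPM 189 and 220 of 1790. In all of the 6 but the capped counts, the number of genes tested changed as well. As shares of the genes tested, those within 1000 to 2000 counts and with at least 2 Foxp3 counts stayed near the main 8.44% and 10.6%. The shares were larger than the main ones with Il2ra of at least 2 counts and with the mean of per-cell CPM. Over the 92 named genes with a ratio, 59 kept its sign in every alternative and 33 turned in at least 1. For 8 of the 33 the interval left out 0 in the comparison as reported, and the cause of the turn was not tested. They were Ikzf4 with at least 2 Foxp3 counts (0.60), Map2k1 (-1.39) and Vps72 (-0.34) with at least 2 Il2ra counts, Nfkbia with capped counts (-0.11), and Tnfrsf18 after thinning (-0.25). Within 1000 to 2000 counts they were also Pdcd1lg2 (-1.10), Tnfrsf18 (-0.15), Tnfrsf9 (-0.29) and Tubb5 (0.18). The thinned ratio of Tnfrsf18 is from the single draw. As the mean over all draws, Tnfrsf18 was found in 37.7% of the positive and 33.1% of the negative cells. No paired analysis was possible because the 4 samples stand in 1 table without sample names, and no replicate could be left out for the same reason. Without Scrublet doublets, and without cells of another lineage, Gata3 (0.54 and 0.50) and Il10 (0.49 and 0.46) kept their direction. Depth limits the rest: at 149124 counts in the Il2ra-positive cells, a gene with 50 counts has an interval wider than 1.5-fold.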
